A study of Mus musculus with 18 samples.

Results

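The genes described here are 44 genes of the thioredoxin, glutathione and antioxidant systems, chosen by symbol out of 54532 genes counted in each library. They were measured by RNA-seq in WT mouse cones that had or had not received Txnip. The study treated neonatal WT eyes with adeno-associated virus (AAV) and sorted labeled cones later, with 1 library per retina. BALB/c retinas, an albino strain, were taken at P21 (postnatal day 21), with 6 control and 6 Txnip libraries. C57BL/6J retinas, a pigmented strain, were taken at P35, with 3 control and 3 Txnip libraries. All retinas received a vector for H2BGFP, a green fluorescent histone that marks cone nuclei for sorting, and control retinas received that vector alone. The Txnip retinas also received a vector that expresses Txnip from the human red opsin promoter, a promoter active in cones. Which retinas came from the same mouse is not given in the sources used here, so p-values measure the spread between these retinas. Strain, age and library set go together and cannot be told apart, and "strain and age difference" always means C57BL/6J at P35 minus BALB/c at P21.

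Txnip is an arrestin-fold protein that binds reduced thioredoxin through a disulfide. Thioredoxins pass electrons from NADPH, by way of thioredoxin reductase, to peroxiredoxins and other proteins, while glutathione does parallel work through glutaredoxins, glutathione peroxidases and glutathione transferases. Nrf2, the product of Nfe2l2, is the transcription factor that raises many of these enzymes under oxidative stress, and Keap1 holds it at a low level. Photoreceptors use much oxygen and carry lipids that oxidize easily, so these systems are studied closely in the retina.

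Across the libraries, the totals ran from 647712 to 5172156 counted pairs with a median of 2886629. The Txnip gene itself had 0 to 3 counts in the 9 control libraries, and 663 to 8536 counts in the 9 Txnip libraries, as the labels say. The 11 cone markers held 3.66% to 9.71% of all counts and each was detected in every library. In the BALB/c libraries the rod list held 1.19% to 1.46% of counts and the Mueller glia list 0.104% to 0.131%. The C57BL/6J libraries spread more widely, from 0.967% to 2.40% for the rod list and from 0.0368% to 0.147% for the Mueller glia list. Genes at a ribosomal RNA locus took 3.31% to 27.8% of counts in C57BL/6J and 6.10% to 16.5% in BALB/c. Fewer cells of a type and less RNA per cell cannot be told apart in such libraries.

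WT cones held RNA of every arm of the redox system at very unequal levels. Levels between genes are given as CPM per kilobase of exon (counts scaled to normalized library sizes, divided by the gene's exonic length). Ferritin heavy chain, Fth1, which oxidizes and stores iron, stood far above all other members at 755 ± 75.3 in BALB/c control cones (SD, n = 6) and 657 ± 89.5 in C57BL/6J control cones (SD, n = 3). In BALB/c control cones it was followed by Ftl1, the ferritin light chain, at 141 ± 5.85, by Gpx4, the peroxidase that reduces lipid hydroperoxides in membranes, at 135 ± 11.9, and by the glutathione transferase Gstp1 at 130.4 ± 11.6 (SD, n = 6). The SDs of these 3 genes reach one another, so their order is not resolved. Near copies on other genes cover 86.1% of the Gstp1 transcript, so its counts depend on how reads with several places were treated. In C57BL/6J control cones the next places were taken by Mgst3, a membrane enzyme of the glutathione transferase class, at 139.6 ± 38.3, and Prdx2, a cytosolic peroxiredoxin, at 133 ± 35.6 (SD, n = 3). Gstp1 followed at 124 ± 39.6, within the SDs of both, so this order is not resolved either.

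In each role group 1 or 2 genes carried most of the RNA. Among the thioredoxins, the mitochondrial Txn2 stood at 45.7 ± 5.05 CPM per kilobase and the cytosolic Txn1 at 34.7 ± 6.61 in BALB/c control cones (SD, n = 6). Their reductases were much lower, with Txnrd2, the mitochondrial form, at 7.29 ± 0.163 and Txnrd1, the cytosolic form, at 2.30 ± 0.943. The other group leaders in these libraries were Prdx2 at 103 ± 7.11, Sod1, the cytosolic superoxide dismutase, at 33.4 ± 11.7, G6pdx, which makes NADPH from glucose-6-phosphate, at 40.6 ± 4.52, and Hmox2, the constitutive heme oxygenase, at 30.4 ± 2.15. The lead of Sod1 depends on the division by exonic length, 3970 bases against 10008 for Sod2. In CPM, Sod2 stood at 157 ± 18.6 and Sod1 at 133 ± 46.5 (SD, n = 6). Near copies on other genes cover 72.5% of the Sod1 transcript. Glutathione synthesis and glutaredoxins were low, and their leaders were glutathione reductase, Gsr, at 8.53 ± 4.03 and Glrx3 at 8.96 ± 0.968 CPM per kilobase. Gss, of the same group as Gsr, stood at 4.925 ± 0.728, which the SD of Gsr reaches. In Txnip cones Gss was above Gsr, at 5.32 against 4.38 in BALB/c and 4.97 against 4.51 in C57BL/6J. The lead of Gsr is therefore not resolved. Gsr makes glutathione available again after oxidation, and Glrx3 is a glutaredoxin known for handling iron-sulfur clusters.

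Of the 44 genes, 38 passed the filter on low counts in the fit of all 18 libraries. The other 6 were Gpx3, Gpx8, Sod3, Gstm1, Mgst1 and Nqo1. Nqo1, a quinone reductase that is a standard Nrf2 target, had 0 to 8 counts in the BALB/c control libraries and 0 to 6 in the BALB/c Txnip libraries. The C57BL/6J libraries held 0 to 2 counts of Nqo1, so a change in it was not detectable at this depth. The plot of levels shows the spread between libraries of each member.

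**Figure D1:**
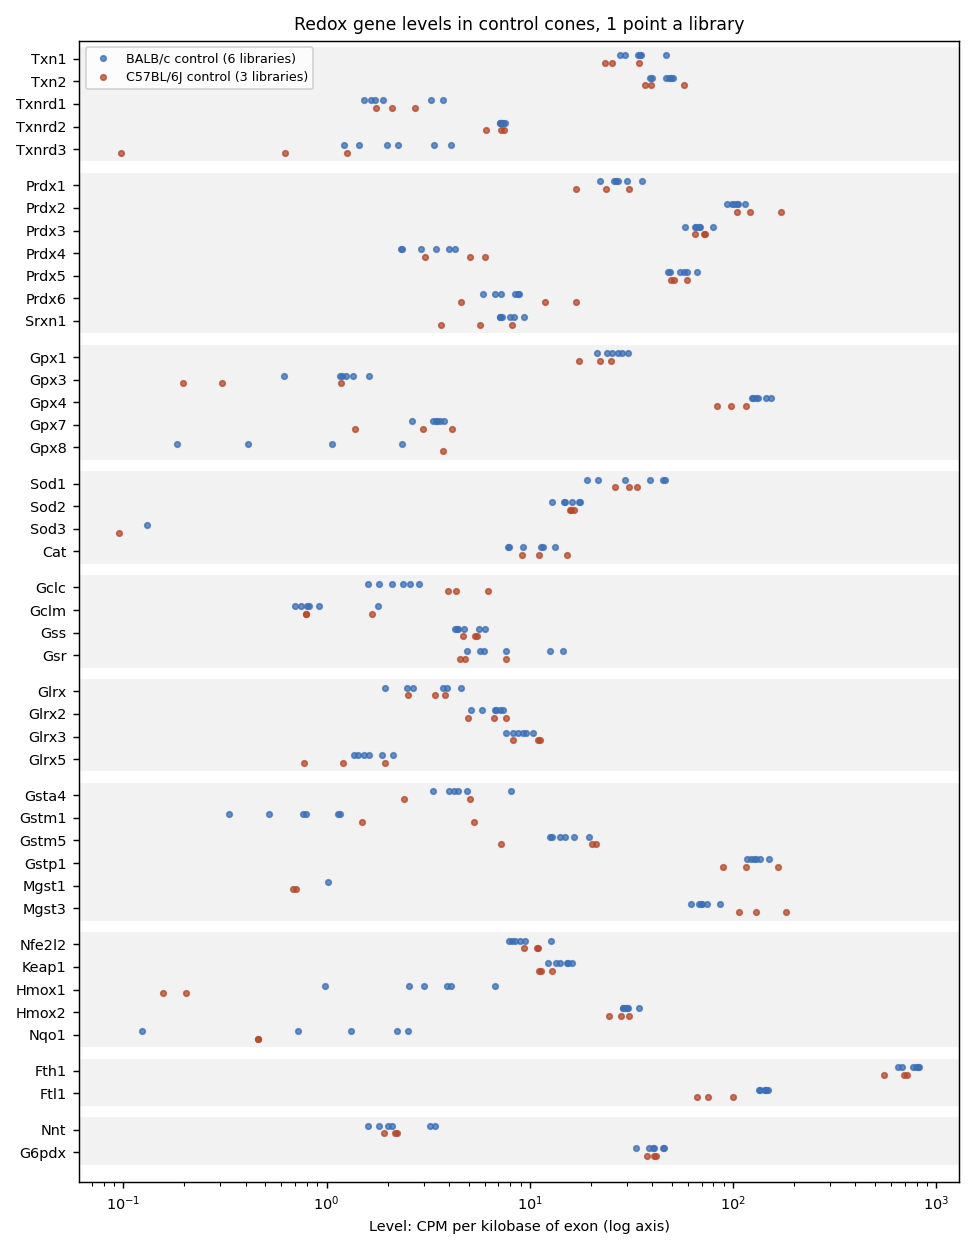
Level of each of the 44 genes in control cones, in CPM per kilobase of exon on a log axis, with 1 point per library (blue for the 6 BALB/c libraries, red for the 3 C57BL/6J libraries) and gray bands for role groups; libraries with a count of 0 are not drawn. Fth1 is the highest gene in both strains, and Hmox1 and Ftl1 are among the genes whose red points lie left of all blue points.

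Some of these genes are known to carry an antioxidant response element (ARE), the DNA site of Nrf2, near their start. The ARE core, TGACNNNGC on either strand, was therefore looked for in the RefSeq promoter windows (GRCm38.p6, 250 bases before to 50 bases after each start). The core was in 9 of 51 windows of the members (17.6%), against 4071 of 32851 windows of all genes (12.4%). By gene, it was in a window of 9 of the 37 members that had one. Among the members on the Nrf2 target list it was in 5 of 11, and among the other members in 4 of 26. The list held 16 members fixed for this work from general knowledge of Nrf2. For 4 listed targets the core and 10 bases on each side are printed as examples of a match. They are read on the strand on which the core reads TGACNNNGC, with the core in capitals. Prdx1 is a cytosolic peroxiredoxin, Gclm the modifier subunit of the enzyme that starts glutathione synthesis, Txnrd1 the cytosolic thioredoxin reductase and G6pdx a source of NADPH.
Prdx1, chr4:116685456-116685484, minus strand: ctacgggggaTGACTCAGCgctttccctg
Gclm, chr3:122245413-122245441, minus strand: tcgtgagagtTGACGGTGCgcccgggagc
Txnrd1, chr10:82859104-82859132, minus strand: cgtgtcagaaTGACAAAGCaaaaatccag
G6pdx, chrX:74428919-74428947, plus strand: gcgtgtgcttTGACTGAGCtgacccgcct
These cores lay 124, 125, 83 and 48 bases before the RefSeq start of the window for Prdx1, Gclm, Txnrd1 and G6pdx. For Prdx1, Txnrd1 and G6pdx that start lies inside the Ensembl gene used for counting and not at its outer end. Another listed target, Srxn1, had its core after its start. Of the members called between the strains, Ftl1, Mgst3 and Gpx4 had windows without the core, and Hmox1 and Gclc had no window in the table. A match is a description of the letters and not a measured binding site.

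Of the 44 genes, the widest difference between the strains was in Hmox1 (chr8:75093621-75100589), the inducible heme oxygenase that breaks heme down to biliverdin, iron and carbon monoxide. Ftl1 and Gpx4 were also lower in C57BL/6J control cones than in BALB/c control cones, while Mgst3 and Gclc were higher. These 5 genes were the members called in control cones, 2 higher and 3 lower of 38 tested (13.2%). Of all 14751 genes tested, 17.5% were called, so the share of members called was not above the background. By direction, 8.03% of all genes were higher and 9.52% lower. Groups that did not overlap were found for the same 5 members, and for 18.6% of all genes. The median log2 difference of the 38 members was -0.08, and that of all genes was 0.00.

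Hmox1 was at or near 0 in C57BL/6J cones. In BALB/c control cones it had 4 to 37 counts per library, and its level ran from 1.72 to 11.8 CPM with a median of 6.07. In the 3 C57BL/6J control libraries it had 1, 0 and 1 counts. The groups did not overlap. Over summed counts, the BALB/c level was 28.5 times the C57BL/6J level, with an exact 95% interval of 7.69 to 239 that covers counting error only (102 counts against 2). Hmox1 passed the filter on low counts only through the BALB/c libraries, where it is high, so its call is no separate support and its levels are given as a description. In the Txnip libraries Hmox1 ran from 4.39 to 13.9 CPM in BALB/c with a median of 7.18, and had 0, 0 and 1 counts in C57BL/6J. That ratio was 74.6, with an interval of 13.1 to 2980 (103 counts against 1). In the 3 C57BL/6J libraries with a count of 0, the limit that a count of 0 allows (3 counts) was 0.810 to 1.09 CPM, below every BALB/c library. Microglia and retinal pigment epithelium also express Hmox1. The 6 microglia markers held 0.000530% to 0.00154% of counts in BALB/c and 0.00100% to 0.00275% in C57BL/6J, and Csf1r made up 91.5% of the list. The other 5 microglia markers had 1 to 8 counts each over the BALB/c control libraries and 0 to 6 each over the C57BL/6J control libraries. The 6 pigment epithelium markers held 0.00337% to 0.00540% in BALB/c and 0.00193% to 0.00501% in C57BL/6J, and Rdh5 made up 90.5% of that list. The marker Lrat went the way of Hmox1, with 76 and 45 counts over the BALB/c control and Txnip libraries and 1 and 6 over the C57BL/6J ones. Rgr had 21 and 5 counts against 1 and 4, Rpe65 had 6 and 1 against 0 and 0, Best1 had 4 and 4 against 2 and 1, and Ttr had 2 and 0 against 5 and 13. The part of these cells in the result was not tested.

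Hmox2, the constitutive enzyme of the same reaction, showed no such gap. Its log2 difference in control cones was -0.13 with a 95% interval of -0.42 to 0.16, and 40.2% of its exonic bases overlap Cdip1 on the other strand. Blvra, biliverdin reductase, which acts on the product of heme oxygenase and is on the list of other Nrf2 genes, was higher in C57BL/6J by 1.18 ± 0.27 (log2, SE, adjusted p = 0.00348).

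Ferritin light chain, Ftl1 (chr7:45457944-45459884), was lower in C57BL/6J control cones. In BALB/c control cones it ran from 179 to 199 CPM with a median of 192, and in C57BL/6J control cones it stood at 101, 88.9 and 133 CPM. No C57BL/6J library reached the lowest BALB/c library. The log2 difference was -0.82 ± 0.19 (SE, 95% interval -1.20 to -0.43, adjusted p = 0.00348), which is a fold of 0.567. In the Txnip libraries the difference was smaller, at -0.54 ± 0.18 (adjusted p = 0.0457), and the groups overlapped. BALB/c Txnip libraries ran from 167 to 236 CPM, and the C57BL/6J Txnip libraries stood at 207, 97.6 and 118 CPM. That second call was lost without any one of 6 of the 9 Txnip libraries, with values of -0.56 without BALB/c library 2, -0.55 without 3, -0.50 without 4, -0.52 without 5, -0.34 without C57BL/6J library 2 and -0.43 without 3. Without C57BL/6J Txnip library 1 the difference was -0.92 and was called. The heavy chain Fth1 did not pass, at -0.21 in control cones with an interval of -0.48 to 0.07. Near copies on other genes cover 95.6% of the Ftl1 transcript, so its counts depend on how reads with several places were treated, and 26.5% of its exonic bases overlap a gene on the other strand.

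Membrane glutathione transferase 3, Mgst3 (chr1:167371966-167393841), was higher in C57BL/6J cones, with 143, 117 and 199 CPM in the control libraries. In BALB/c control cones it ran from 67.9 to 94.1 CPM with a median of 76.6, so every C57BL/6J library lay above every BALB/c library. The log2 difference was 0.96 ± 0.20 (SE, 95% interval 0.55 to 1.37, adjusted p = 0.00157), a fold of 1.95. The Txnip libraries gave 0.90 ± 0.20 (adjusted p = 0.00309), again without overlap, with 210.3, 94.4 and 117 CPM in C57BL/6J and 58.7 to 88.8 CPM in BALB/c. Without C57BL/6J Txnip library 1 that value was 0.49 and its call was lost (adjusted p = 0.0783). C57BL/6J control library 3 and Txnip library 1, the highest in each group for Mgst3, also had the highest share of cone markers, at 9.71% and 9.15% against 3.66% to 6.77% in the other 4. The same 2 libraries were the highest of their groups for Ftl1 and Gpx4. C57BL/6J control library 2 and Txnip library 2 were the lowest for Mgst3, Ftl1 and Gpx4, had the lowest cone marker shares (4.96% and 3.66%) and had the most counts at the ribosomal RNA locus (27.8% and 27.2%). The part of these shares in the 3 results was not tested.

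Gclc (chr9:77754535-77794485), the catalytic subunit of the enzyme that limits glutathione synthesis, was the other gene that was higher in C57BL/6J. It stood at 23.6, 14.9 and 16.3 CPM in the C57BL/6J control libraries and ran from 6.02 to 10.8 CPM with a median of 8.42 in BALB/c. These groups did not overlap. The log2 difference was 1.09 ± 0.31 (SE, 95% interval 0.45 to 1.74, adjusted p = 0.0173), a fold of 2.13. Without C57BL/6J control library 1 it was 0.85 and was not called (adjusted p = 0.110), and this library had the highest share of rod and Mueller glia markers (2.40% and 0.147%). Over 13 other settings the difference ran from 0.85 to 1.26, and the call was lost in 3 of them. The part of these shares in the result was not tested. In the Txnip libraries Gclc differed by 0.92 ± 0.31 (adjusted p = 0.0457). The Txnip values overlapped, at 27.0, 14.9 and 11.7 CPM in C57BL/6J and 4.62 to 14.6 CPM in BALB/c, and the call was lost without any one of BALB/c libraries 1, 2, 4, 5 or 6 (values of 0.79, 0.92, 0.85, 0.96 and 0.82) and without C57BL/6J library 1 (0.48). The rest of the glutathione synthesis and reduction group did not pass. Gclm, its partner subunit, differed by 0.20 (interval -0.59 to 0.99), Gss by 0.07 and Gsr by -0.60 in control cones.

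Gpx4 (chr10:80047166-80056439) was the weakest of the 5 calls. It ran from 213 to 264 CPM with a median of 226 in BALB/c control cones and stood at 167, 144 and 199 CPM in C57BL/6J control cones, without overlap. The log2 difference was -0.45 ± 0.15 (SE, adjusted p = 0.0384), a fold of 0.730. The call was lost without BALB/c control library 2 (-0.42) and without C57BL/6J control library 1 (-0.46) or 2 (-0.37), and in 5 of 14 other settings. In the Txnip libraries it was -0.30 with an interval of -0.61 to 0.00 and was not called, and without C57BL/6J Txnip library 1 it was -0.55 and was called. Near copies on other genes cover 73.7% of its transcript.

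Srxn1 (chr2:152105516-152111376), sulfiredoxin, which restores peroxiredoxins that have been oxidized too far, was called only in the Txnip libraries. In BALB/c Txnip cones it ran from 23.1 to 35.8 CPM with a median of 26.3, and in C57BL/6J Txnip cones it stood at 19.4, 9.44 and 15.1 CPM. The groups did not overlap, and the log2 difference was -0.97 ± 0.25 (SE, adjusted p = 0.00897). In control cones the difference was -0.42 with an interval of -0.93 to 0.09 (adjusted p = 0.254), and the groups overlapped. This value ran from -0.75 without C57BL/6J control library 3 to -0.20 without C57BL/6J control library 1. The test of whether these 2 differences were unequal did not pass (-0.55 ± 0.34, adjusted p = 1.00). Srxn1 was named after its values were seen. In the Txnip libraries 5 of 38 members were called (Hmox1, Srxn1, Ftl1, Mgst3 and Gclc), 13.2% against 17.6% of all genes. Of these, 2 were higher and 3 lower, where 8.24% and 9.38% of all genes were. Groups did not overlap for 4 members (Hmox1, Mgst3, Srxn1 and Sod1, the last not called) and for 17.9% of all genes.

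**Figure D2:**
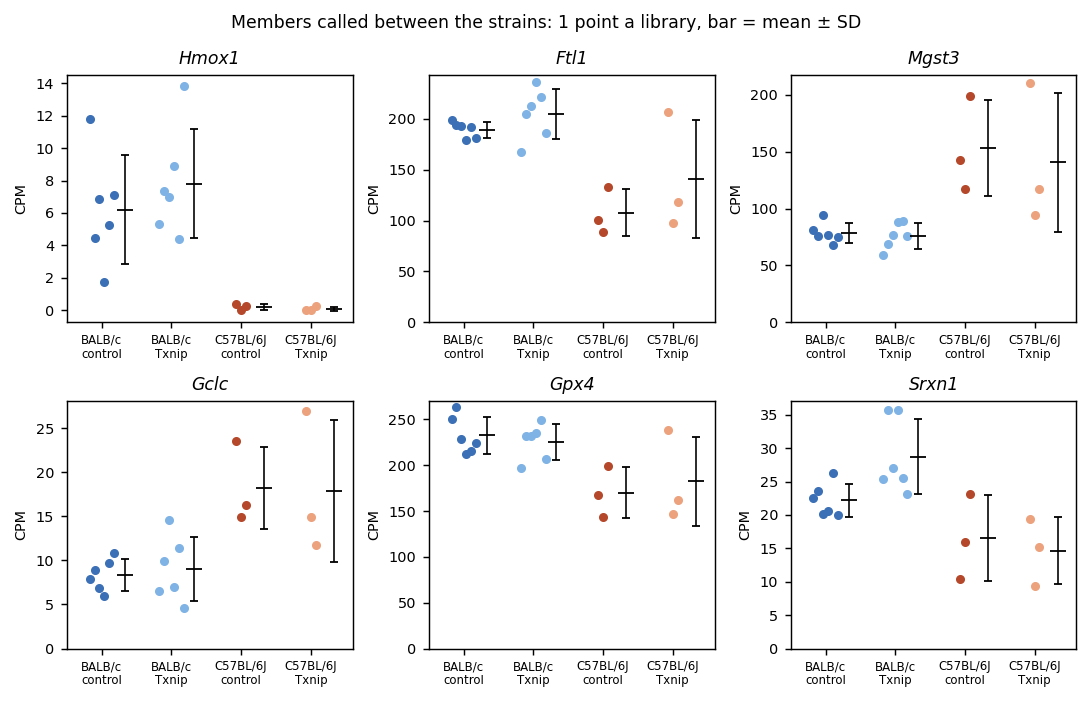
CPM of the 6 members called between the strains in control or Txnip cones, with 1 point per library in each of the 4 groups and a bar for the mean ± SD. Hmox1 lies at or near 0 in all 6 C57BL/6J libraries, Mgst3 separates the strains in control and in Txnip cones, and Gpx4, Gclc and Ftl1 separate them in control cones and overlap in Txnip cones.

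The remaining groups gave no call in control cones. All 5 genes of the thioredoxin system had values below 0, with Txn1 at -0.32 (95% interval -0.77 to 0.13) and Txn2 at -0.04 (interval -0.38 to 0.30). The sign of the Txn2 value turned when C57BL/6J control library 1 was left out. Txnrd3, a reductase known from testis, gave -1.86 ± 0.77 (adjusted p = 0.101) from 1 to 27 counts per control library. It passed the filter on low counts only through the BALB/c libraries, where it is high, so its value and sign are a description. The 7 peroxiredoxin and sulfiredoxin genes ran from -0.42 for Srxn1 to 0.57 for Prdx4, the peroxiredoxin of the endoplasmic reticulum. Prdx2 gave 0.36 in control cones and 0.48 in Txnip cones (adjusted p = 0.202 and 0.0862). Without C57BL/6J control library 3 the first of these was 0.12. The superoxide dismutases and catalase ran from -0.14 to 0.22, and the 4 glutaredoxins from -0.35 to 0.18. Nfe2l2 differed by 0.16 (interval -0.23 to 0.54) and Keap1 by -0.29 (interval -0.62 to 0.04), so neither the factor nor its regulator passed at the RNA level. On the Nrf2 target list, 3 of 14 tested members were called in control cones (Hmox1 and Ftl1 lower, Gclc higher), or 21.4% against 17.5% of all genes. In Txnip cones 4 of 14 were called, 1 higher and 3 lower, or 28.6% against 17.6%. Hmox1, which passed the filter only through BALB/c, is 1 of the calls in each, so nothing is read from these shares. In control cones 11 of the 14 values were below 0 with a median of -0.22, and in the Txnip libraries 8 of the 14 with a median of -0.12. Hmox1 and Gsta4, which passed the filter only through BALB/c, are below 0 in both, so nothing is read from these counts.

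Gsta4, a transferase for lipid aldehydes, was not called (-0.96 ± 0.70 in control cones). It had 18, 0 and 11 counts in the C57BL/6J control libraries and 3, 21 and 2 in the C57BL/6J Txnip libraries. The Mueller glia markers took 0.147%, 0.0368% and 0.0778%, and 0.0626%, 0.0976% and 0.0436% of counts in the same libraries. In both C57BL/6J groups the library with the most Gsta4 had the most Mueller glia RNA. That was not so in BALB/c, where control library 5 had the most Gsta4 (10.2 CPM) and the lowest Mueller glia share of its group (0.104%). The part of that RNA in the result was not tested. Gsta4 was called in control cones with the rod share as a covariate. It passed the filter on low counts only through the BALB/c libraries, where it is high, so this call is no separate support. Of the Mueller glia list, Clu alone made up 76.5% of the counts.

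Nnt, the mitochondrial transhydrogenase that makes NADPH, is known to lack a stretch of internal exons in C57BL/6J. Its counts, summed over all exons (chr13:119335448-119408997), did not differ. In BALB/c control cones Nnt ran from 11.3 to 24.1 CPM with a median of 14.4, and in C57BL/6J control cones it stood at 15.4, 15.6 and 13.5 CPM. The log2 difference was -0.16 with an interval of -0.69 to 0.37. A count over the whole gene cannot show whether those exons were read. A second, shorter model of Nnt shares 3339 exonic bases with the first, and pairs there were counted for both.

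**Figure D3:**
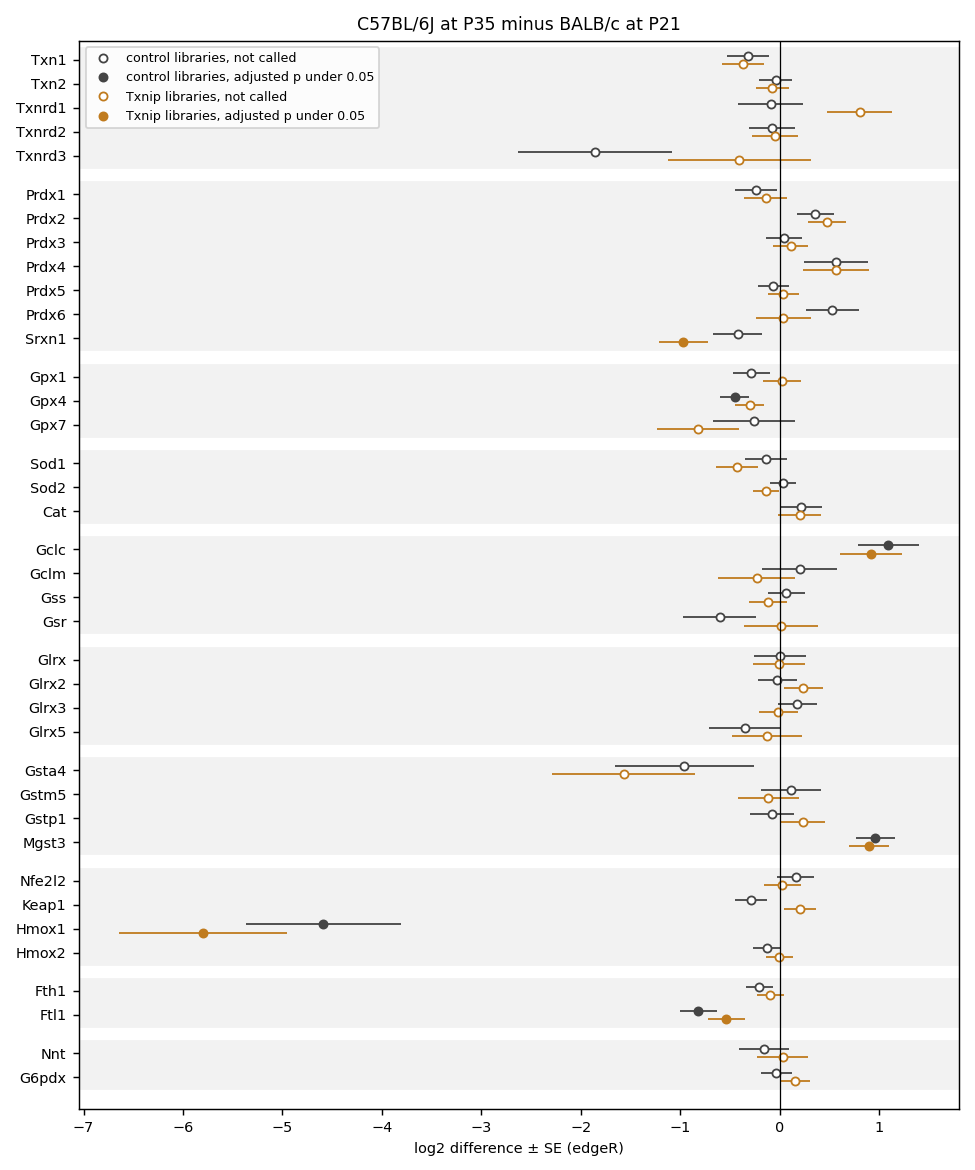
log2 difference ± SE, C57BL/6J at P35 minus BALB/c at P21, for the 38 members tested, in control libraries (black) and in Txnip libraries (orange); filled points passed an adjusted p of 0.05. Hmox1 lies far to the left of all other members in both comparisons, and Mgst3 and Gclc are the filled points right of 0.

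The redox genes outside the 44 differed between the strains at a rate near the background. Of the 152 other genes of these pathways, 124 were tested in control cones and 25 were called, 8 higher and 17 lower in C57BL/6J (20.2%). Of all genes 17.5% were called, 8.03% higher and 9.52% lower, and the shares of the single lists are to be read against these. Chac1, an enzyme that splits glutathione, showed the widest gap of its list. It had 111 to 302 counts in BALB/c control libraries and 0, 1 and 8 in C57BL/6J control libraries, and the log2 difference was -6.08 ± 0.42. It was -5.80 ± 0.41 in the Txnip libraries. Chac1 and, of the genes named next, Me3, Mt3 and Gsto1 passed the filter only through BALB/c, and Trf only through C57BL/6J, so their values are a description. The glutathione handling list, to which Chac1 belongs, gave 3 calls of 13 tested (23.1%). On it, Slc3a2, the heavy chain of the cystine and glutamate exchanger, differed by -1.11 ± 0.14, and Slc1a1, a transporter of glutamate and cysteine, by -1.48 ± 0.30. These transporters bring in building blocks of glutathione.

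NADPH supply gave 3 lower calls of 16 tested (18.8%, against 17.5% of all genes). Me3, the mitochondrial malic enzyme, differed by -3.29 ± 0.53, Mthfd2, a mitochondrial folate enzyme, by -1.77 ± 0.22, and Tkt, the transketolase of the pentose phosphate pathway, by -0.67 ± 0.21 in control cones. The thioredoxin fold list gave 1 higher and 4 lower calls of 22 tested (22.7%, against the same 17.5%). Nxnl2, a thioredoxin-like protein of photoreceptors, was higher by 1.5 ± 0.17, while Tmx3 and Txndc5, both of the endoplasmic reticulum, differed by -1.21 ± 0.24 and -0.93 ± 0.28. Txndc5 did not keep its direction in the Txnip libraries (0.24 ± 0.27, adjusted p = 0.584). Its mean in BALB/c was 320.1 CPM in control and 169 CPM in Txnip cones, a Txnip difference of -0.90 ± 0.21 that was not called (adjusted p = 0.106). The list of Nrf2 partners and other targets gave 5 calls of 17 tested in control cones (29.4%) and 6 in Txnip cones (35.3%, against 17.6% of all genes). On it, Mafg, the small Maf protein with which Nrf2 binds DNA, was higher by 1.15 ± 0.16, and Nfe2l1, a relative of Nrf2, differed by -0.91 ± 0.13. The metallothioneins Mt1 and Mt3, which bind zinc and copper, differed by -1.53 ± 0.46 and -2.69 ± 0.58. In control cones Sesn1, a sestrin, was higher by 0.66 ± 0.15, Gstm4 by 0.90 ± 0.20, and Gsto1 differed by -2.24 ± 0.63. Iron handling gave higher values for Slc25a28, a mitochondrial iron carrier, at 1.23 ± 0.30, and for Trf, transferrin, at 3.34 ± 1.01, and a lower one for Fech, the last enzyme of heme synthesis, at -0.61 ± 0.20. Trf had 78, 0 and 23 counts in the C57BL/6J control libraries, in the same order of size as their Mueller glia shares, and the part of that RNA was not tested. Of the genes that bind thioredoxin or Txnip, Hif1a was the 1 called of 9 tested (11.1%, against 17.5% of all genes), at -0.65 ± 0.21. In the Txnip libraries neither Hif1a (-0.26 ± 0.20, adjusted p = 0.419) nor Trf (1.74 ± 1.06, adjusted p = 0.286) was called.

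Adding Txnip left the 44 genes without a single call in either strain. In BALB/c 37 members were tested and 0 were called, and in C57BL/6J 36 were tested and 0 were called. The background was low as well, since 2 of 12017 genes (0.0166%) passed in BALB/c, and 2 of 12974 (0.0154%) passed in C57BL/6J, Txnip among them. At an unadjusted p under 0.05 there were 6 members in BALB/c (16.2%, against 11.4% of all genes) and 0 in C57BL/6J (against 0.748%). No member had groups that did not overlap in either strain, against 0.716% of all genes in BALB/c and 4.39% in C57BL/6J. With DESeq2 the counts of called members were also 0 in both strains. Members tested in BALB/c had a median log2 difference of -0.04 (all genes 0.00), and those tested in C57BL/6J one of -0.06 (all genes 0.01).

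The thioredoxins, which are the partners that Txnip can bind, were close to their controls. Txn1 (chr4:57943373-57956411) ran from 29.2 to 48.9 CPM with a median of 36.2 in BALB/c control cones and from 27.1 to 47.9 CPM with a median of 41.7 in BALB/c Txnip cones. The C57BL/6J libraries stood at 26.8, 24.5 and 36.1 CPM in control and at 41.3, 24.0 and 26.1 CPM in Txnip libraries. The groups overlapped in both strains. The log2 difference was 0.10 in BALB/c (95% interval -0.23 to 0.43) and 0.06 in C57BL/6J (interval -0.57 to 0.68). Txn2 (chr15:77915047-77929006) differed by -0.08 in BALB/c (interval -0.27 to 0.11) and by -0.12 in C57BL/6J (interval -0.69 to 0.46). In C57BL/6J the sign of the Txn1 and Txn2 values turned when 1 library was left out. A near copy, Txn-ps1, covers 29.3% of the Txn1 transcript. The intervals were wider in C57BL/6J, where the spread between libraries was 34.3% against 18% in BALB/c (biological coefficient of variation).

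The 3 members with the smallest p in BALB/c were Glrx2, Gsr and Keap1, and their values were below control. Glrx2 (chr1:143716338-143749676), the mitochondrial glutaredoxin, ran from 45.3 to 64.9 CPM with a median of 59.5 in control and from 27.4 to 53.5 CPM with a median of 38.9 in Txnip cones. Its log2 difference was -0.52 ± 0.15 (SE, adjusted p = 0.179). In C57BL/6J Glrx2 stood at 58.2, 43.7 and 66.7 CPM in control and at 52.4, 37.0 and 50.2 CPM in Txnip cones. That difference was -0.28 ± 0.23 (adjusted p = 1.00), and it ran from -0.43 without control library 2 to -0.15 without control library 3. The 7 amacrine cell markers held 0.0279% to 0.0362% of counts in BALB/c control and 0.0379% to 0.0518% in BALB/c Txnip libraries, without overlap, and their part in the BALB/c values was not tested.

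Gsr (chr8:33652523-33698163) differed by -0.93 ± 0.29 in BALB/c (SE, adjusted p = 0.202), and 2 control libraries set much of that value. It ran from 6.16 to 17.9 CPM with a median of 11.6 in Txnip cones. In control cones library 4 had 40.0 CPM and library 5 had 34.6 CPM, while the other 4 ran from 13.4 to 21.1 CPM. Txnrd1 (chr10:82833951-82897712) had the same shape, with 23.2 and 26.4 CPM in control libraries 4 and 5 and 10.8 to 13.5 CPM in the other 4, against 4.62 to 15.7 CPM in Txnip cones (-0.73 ± 0.29, adjusted p = 0.320). Sod1 was the reverse, with 76.1 and 86.4 CPM in libraries 4 and 5, 117 to 183 CPM in the other 4 control libraries and 169 to 198 CPM in Txnip cones (0.46 ± 0.17, adjusted p = 0.293). Over 5412 genes, the deviations of libraries 4 and 5 from their group's mean went together (r = 0.34, a correlation across genes of libraries whose own mean is subtracted), as did those of BALB/c Txnip libraries 1 and 2 (r = 0.498). In control libraries 4 and 5 the ribosomal RNA locus took 6.17% and 6.10% of counts against 8.84% to 15.9% in the other 4. These 2 libraries also had 29629 and 29401 genes with a count, against 20014 to 24007 in the other 4. The part of either difference in the result was not tested. Without both libraries, an alternative chosen after seeing the data, the value was -0.41 for Gsr, -0.26 for Txnrd1 and 0.20 for Sod1.

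Keap1 (chr9:21229730-21239361) ran from 57.4 to 75.6 CPM with a median of 69.0 in BALB/c control and from 37.0 to 63.4 CPM with a median of 48.7 in Txnip cones. Its log2 difference was -0.42 ± 0.13 (SE, adjusted p = 0.207) and stayed between -0.51 and -0.37 when any 1 library was left out. In C57BL/6J Keap1 stood at 53.2, 52.3 and 60.7 CPM in control and at 58.0, 55.9 and 59.6 CPM in Txnip cones (0.06 ± 0.19). The test of the difference between the strains in the Txnip effect gave 0.49 for Keap1 with an interval of 0.02 to 0.96 and an adjusted p of 1.00, the only 1 of 38 members (2.63%) with an unadjusted p under 0.05. No gene of the 14751 passed that test with edgeR or DESeq2, and 4.79% had an unadjusted p under 0.05.

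Other Nrf2 genes gave no call either. Nfe2l2 differed by 0.05 in BALB/c (95% interval -0.28 to 0.37) and by -0.09 in C57BL/6J (interval -0.58 to 0.39). Hmox1 differed by 0.22 in BALB/c (interval -0.50 to 0.95) and did not pass the filter in C57BL/6J. Srxn1 gave 0.38 ± 0.15 in BALB/c (adjusted p = 0.326) and -0.17 ± 0.39 in C57BL/6J. On the Nrf2 target list, 9 of 14 values in BALB/c were above 0 with a median of 0.09, and 6 of 13 in C57BL/6J with a median of -0.04. The 2 members with the smallest p in C57BL/6J beside Glrx2 were Ftl1 at 0.38 ± 0.29 and G6pdx at 0.21 ± 0.23 (adjusted p = 1.00 for both). Both rested on C57BL/6J Txnip library 1, without which Ftl1 was at 0.022 and G6pdx at 0.055. Of the 152 other pathway genes, 113 were tested in BALB/c and 111 in C57BL/6J, with 0 called in each and 16 (14.2%, against 11.4% of all genes) and 1 (0.901%, against 0.748%) at an unadjusted p under 0.05. Groups did not overlap for 2 of the 113 (0.716% of all genes in BALB/c) and 1 of the 111 (4.39% of all genes in C57BL/6J).

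**Figure D4:**
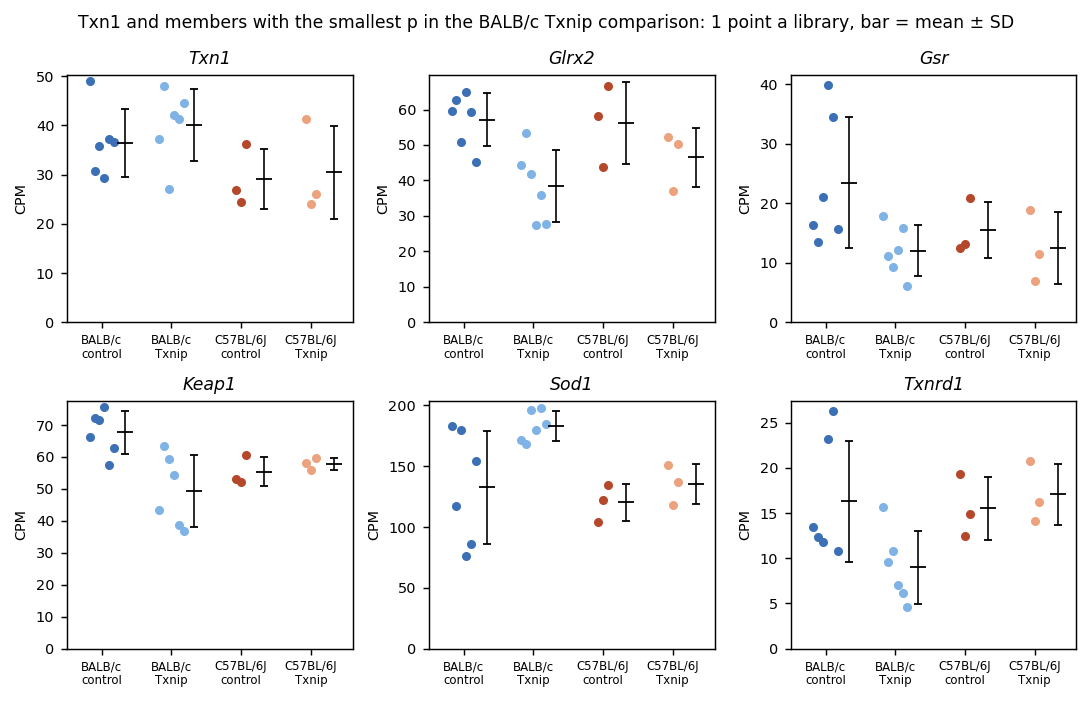
CPM of Txn1 and of 5 of the 6 members with an unadjusted p under 0.05 in BALB/c, with 1 point per library in each of the 4 groups and a bar for the mean ± SD. Control and Txnip points of BALB/c overlap for each gene, and 2 control libraries stand apart for Gsr, Txnrd1 and Sod1.

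**Figure D5:**
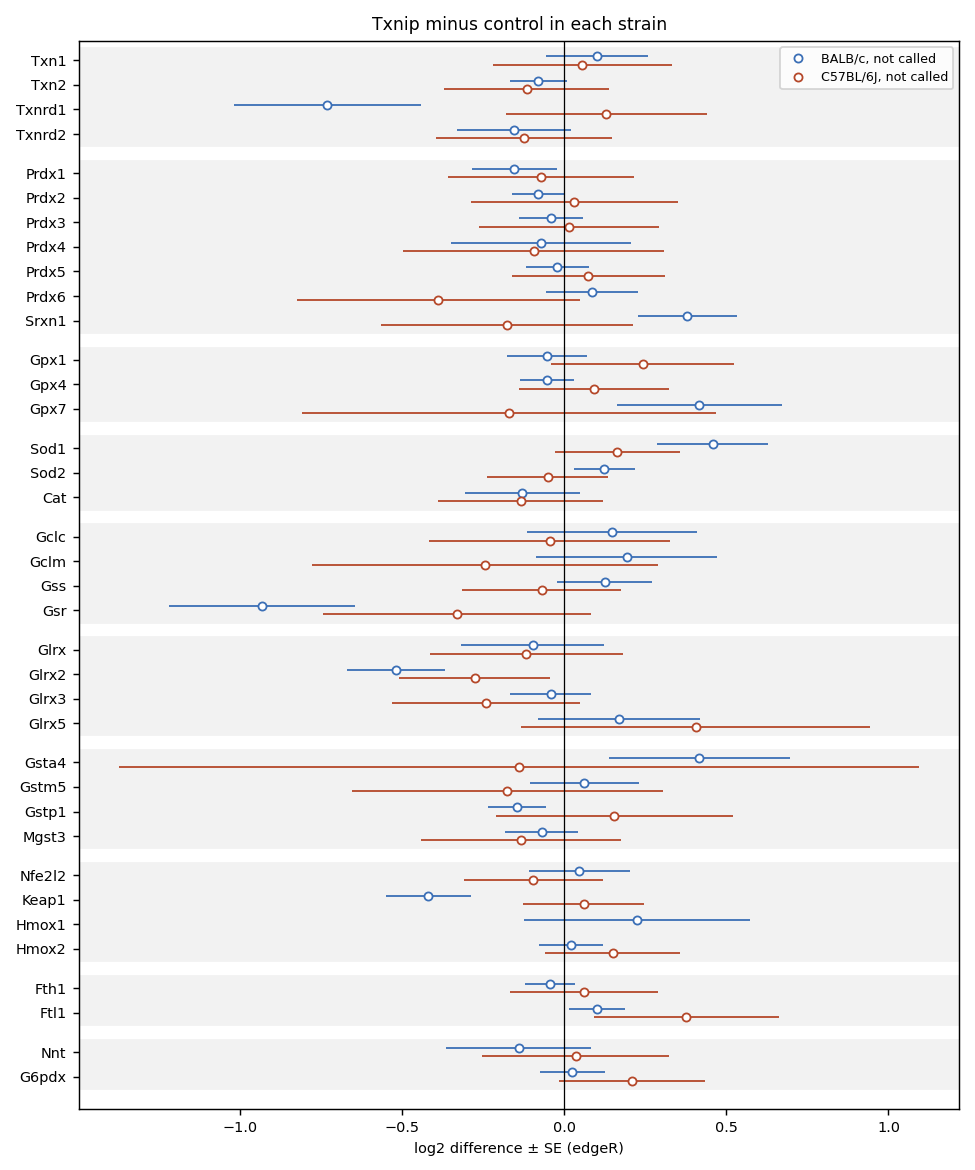
log2 difference ± SE of Txnip against control for each member tested in BALB/c (blue) or C57BL/6J (red); open points did not pass an adjusted p of 0.05. All points are open, and the error bars of C57BL/6J are wider for most members.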

How the data were processed

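The libraries were made from sorted cones with a modified Smart-Seq2 protocol. Per the file headers, the deposited values are raw counts of pairs on Ensembl 94 exons (GRCm38), made by the authors in featureCounts 1.6.2. A pair counted for every gene it overlapped, no strand option was set, and the option to count pairs aligned to several places was not set. The submitters' processing notes name STAR, without a version. The 2 other tables, not used here, hold the authors' DESeq2 comparisons of Txnip with control.

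Here, all 18 tables were joined, and the 44 symbols matched 44 genes (Nnt by its fuller model). Counts were tested with edgeR 4.0.16 in R 4.3.3 (filterByExpr, TMM, quasi-likelihood test, Benjamini-Hochberg over all genes tested, threshold 0.05), checked on simulated counts. Txnip was compared with control within each strain, and strain contrasts and the interaction came from 1 fit of all 4 groups. SE is the log2 difference over the root of F. CPM uses TMM library sizes. DESeq2 1.42.0 was an alternative. Near copies were searched with blastn among GENCODE M21 transcripts (95% identity or more, 100 bases or more). Pairs of libraries of 1 group all differed by more than sampling noise (chi-square per degree of freedom at least 1.83). The members and lists were chosen with earlier results of these data known. Named genes are the members called between strains in control cones, Txn1, Txn2, the 3 members with the smallest p per Txnip comparison, Nnt, the main Nrf2 genes, the leader of each role group, and called pathway genes among the 3 widest differences of their list. Promoter windows of Gclc, Gsr, Gsta4, Hmox1, Nnt, Prdx6 and Sod3 were not used here.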

Additional observations from a re-analysis of the deposited data

Results flagged for a closer look

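Among 24 named members in both BALB/c groups of 6, 5 of 48 tests found a library that stood apart from the other 5, where chance gives about 1 in 20. BALB/c control library 5 was highest for Nfe2l2 at 48.0 CPM, with the others at 29.9 to 36.0, and for Gsta4 at 10.2 CPM, with the others at 4.24 to 6.19. BALB/c control library 1 was highest for Hmox2 at 76.5 CPM, with the others at 63.8 to 67.8. BALB/c Txnip library 4 was highest for Txn2 at 209 CPM, with the others at 171 to 184, and BALB/c Txnip library 1 for Txnrd3 at 10.4 CPM, with the others at 0.634 to 4.06.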

How the results depend on the processing

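The count of called members stayed at 0 in C57BL/6J and for the difference between strains under every alternative, and in BALB/c under all but 1. With all genes of at least 1 count, 4 members were called in BALB/c (Glrx2, Gsr, Keap1 and Sod1), a setting that called 1400 genes and put the median of all genes at -0.23. It called 5 genes in C57BL/6J and 186 for the difference between strains. With the rod share without Sag and Pde6g as a covariate, chosen after seeing the data, 133 genes were called in BALB/c in place of 2, and with DESeq2 76, with 0 members in both. In control cones the strain and age comparison called 3 members with at least 10 counts in every library, where Hmox1 and Gclc were not tested, and 3 to 5 members when 1 library was left out. In Txnip cones it called 3 with at least 10 counts in every library, 3 with the replicate block, and 3 to 6 when 1 library was left out, with 3 where that library was BALB/c Txnip 2, 4 or 5. Over all genes, at least 10 counts in every library gave 1507 and 1475 calls in control and Txnip cones, where fewer genes were tested, and the Mueller glia share as a covariate gave 1499 in Txnip cones. The cause was not tested.

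Whether retinas of the same number share a mouse is not given, and the data did not show pairing for every number, as the correlation of deviations ran from -0.20 to 0.24 in BALB/c and from -0.15 to 0.39 in C57BL/6J. With the replicate block, control cones gave 4 calls, with Gclc (adjusted p = 0.0940) and Gpx4 (0.0870) lost and Txnrd3 gained, Txnip cones lost Ftl1 (0.103) and Gclc (0.159), and 1645 and 1810 genes in all were called in place of 2588 and 2599. Txnrd3 passed the filter on low counts only through BALB/c, so its call is no separate support. The block left 0 members called by Txnip in both strains.

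The direction turned for Txn2 between strains in control cones. The value was 0.062 without C57BL/6J control library 1 and Txnip library 2. Their rod shares were 2.40% and 1.66%, and Txnip library 1, which was kept, had 1.68%. The Txn2 value was 0.013 without BALB/c control libraries 4 and 5 and 0.058 with the shortened rod list as a covariate. It ran from -0.27 to 0.063 when 1 library was left out. For Hmox1 in BALB/c the direction turned, to -0.061, without control libraries 4 and 5. With 1 library left out, Nfe2l2 in BALB/c ran from -0.055 to 0.17, and in C57BL/6J Txn1 ran from -0.20 to 0.23 and Txn2 from -0.33 to 0.10. The direction of Hmox1, Ftl1, Mgst3, Gclc and Gpx4 between strains held under every alternative in control cones. Of them, Ftl1 and Mgst3 stayed called, and so did Hmox1 where it was tested, though it passed the filter only through BALB/c. Groups of 3 retinas in C57BL/6J limit what could be seen there.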
